A study of Bos taurus with 22 samples.

Results

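The microRNAs bta-miR-128, bta-miR-181b, bta-miR-425-5p, bta-miR-1839, bta-miR-151-3p and bta-miR-1307 of bovine plasma were followed as candidate normalisers, that is, as internal standards against which other plasma miRNAs could be measured. These are 6 of the 844 miRNAs listed in the read count table (611 bovine miRNAs and 233 human homologues). They were selected on the low spread of their levels over the libraries of this study. All 6 passed the filter on low values that left 195 miRNAs for testing. Their spread, their ratios to each other and their differences between days were therefore part of the choice, and are given below as descriptions without a test. The relation of their ratios to 2 library measures was tested. The choice did not use these measures, but it did shape the ratios.

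The study sequenced small RNA from jugular plasma, drawn into EDTA, of 11 Holstein-Friesian heifers in the second year of life. None had been inseminated before, and all were synchronised, artificially inseminated and scanned as pregnant. Each animal was sampled on Day 0, the non-pregnant baseline, and again on Day 60 of pregnancy, which gave 22 libraries in 2 groups of 11. Every Day 60 sample was taken later in the life of the same animal, so pregnancy, age and calendar time cannot be told apart.

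Mature miRNAs are short RNAs that are cut from a hairpin precursor and guide silencing complexes to messenger RNAs. In blood plasma they persist because they are bound to proteins or enclosed in vesicles, and they come from blood cells, endothelium and many organs at once. Sequencing measures each miRNA only as a share of all miRNA reads, so a miRNA with an unusually constant share, or a pair with a constant ratio, is commonly used as a fixed point for normalisation. RT-qPCR data of the same study were normalised to an exogenous spike-in together with miR-128, one of the miRNAs described here.

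The 6 miRNAs came from separate places in the bovine genome. In the deposited coordinates (bosTau4), miR-128 lay at chr2:64640146-64640166 on the minus strand, miR-181b at chr11:99137991-99138014 on the plus strand and miR-425-5p at chr22:51903232-51903253 on the plus strand. The reads of miR-1839 were placed at chr14:525907-525930 on the minus strand, those of miR-151-3p at chr14:2275128-2275148 on the plus strand, and those of miR-1307 at chr26:24439305-24439326 on the minus strand. Both chromosome 14 miRNAs thus sat on one chromosome but on opposite strands.

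By symbol, the 6 miRNAs matched 8 miRNA genes of the RefSeq annotation (ARS-UCD2.0). For 4 of the 6, each gene lay inside the span of a protein-coding gene, with no other miRNA gene nearby. MIR128-1 lay within R3HDM1 and MIR128-2 within ARPP21, MIR151 within PTK2 (focal adhesion kinase), MIR1839 within MROH1, and MIR1307 within ATP5MK, which encodes a small membrane subunit of the mitochondrial ATP synthase. MIR181B-1 and MIR181B-2 each lay beside a MIR181A gene, MIR181B-2 also within the span of NR6A1, and MIR425 lay beside MIR191. The table listed 1 position for each mature miRNA, and reads of the identical products of 2 genes, for miR-128 and for miR-181b, cannot be separated.

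One library stood apart in depth. Total miRNA reads ran from 1912290 to 6839128 on Day 0 and from 304117 to 12775451 on Day 60, where heifer 17 had the lowest total and heifer 31 the highest. In the shallow library of heifer 17, miR-1839 and miR-1307 each had 110 reads, or 361.7 reads per 1000000 miRNA reads (RPMM), with an exact 95% Poisson interval of 297.3 to 436.0 RPMM that covers counting error only. The Day 60 library of heifer 31 had 21.5% of its reads from miR-143, a miRNA abundant in smooth muscle. Some of the results below, but not all, are also given without the shallow library or without heifer 31. The ratio of miR-451 to miR-23a, the study's indicator of haemolysis, was taken here from reads. It was 0.935 to 13.4 on Day 0 (median 1.83) but 4.36 to 27.7 on Day 60 (median 8.56), higher on Day 60 in 9 of 11 heifers. Both of its parts differed between days. In the edgeR fit with TMM described below, the log2 fold-change on Day 60 was -1.18 for miR-23a and 0.79 for miR-451. The rise of the ratio is thus not a measure of red cell reads alone. The erythroid list (miR-451, miR-144 and miR-486) took 6.70 to 32.7% of reads on Day 0 and 12.1 to 35.9% on Day 60, higher in 6 of 11 heifers. The leukocyte list (miR-142-5p, miR-142-3p, miR-150, miR-155 and miR-223) took 3.24 to 4.72% and 3.45 to 6.86%, higher on Day 60 in 8 of 11.

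The most abundant of the 6 was miR-151-3p, which comes from an intron of the focal adhesion kinase gene. On Day 0 its level ran from 5287 RPMM in heifer 12 through a median of 7183 to 8154 RPMM in heifer 31, and on Day 60 from 4508 RPMM in heifer 17 through a median of 6557 to 8706 RPMM in heifer 10. The ranges overlapped almost completely: 2 Day 60 libraries lay below every Day 0 library and 1 lay above. Its mean was 6891 ± 1112 RPMM on Day 0 and 6573 ± 1194 RPMM on Day 60 (SD, n = 11), and it was higher on Day 60 in 7 of 11 heifers. Only heifers 17 and 31 had low values on Day 60.

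miR-128 is known as a brain-enriched miRNA that also acts in lymphoid cells and muscle. On Day 0 its 11 values lay close together, from 2485 RPMM in heifer 17 through a median of 2752 to 2992 RPMM in heifer 24. On Day 60 they ran from 1384 RPMM in heifer 31 through a median of 2351 to 3334 RPMM in heifer 12. Of the 11 Day 60 libraries, 9 were below the lowest Day 0 library, 1 was above the highest one, and the level was lower on Day 60 in 10 of 11 heifers. The means were 2785 ± 162 RPMM and 2336 ± 452 RPMM (SD, n = 11), a mean within-heifer log2 difference in RPMM of -0.28 ± 0.30 (SD). The miRNA with a CV of 5.81% on Day 0, the lowest of all 195 on that day, thus had its sampling days largely apart on the RPMM scale.

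miR-425-5p, which is processed from a precursor next to that of miR-191, gave a similar picture. It ran from 1634 RPMM (heifer 11) through a median of 1861 to 2208 RPMM (heifer 24) on Day 0, and from 868.9 RPMM (heifer 31) through a median of 1588 to 2153 RPMM (heifer 12) on Day 60. Below the lowest Day 0 library lay 8 Day 60 libraries, and none lay above the highest. The within-heifer log2 difference in RPMM was -0.28 ± 0.34 (SD, n = 11), with lower values in 9 of 11 heifers. Heifer 31 had the lowest Day 60 value and heifer 12 the highest of both miR-128 and miR-425-5p.

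miR-181b belongs to the miR-181 family, known for its part in lymphocyte development and in vascular inflammation. Its level was 985.1 RPMM (heifer 29) to 1856 RPMM (heifer 17) on Day 0 with a median of 1428, and 777.1 RPMM (heifer 29) to 1412 RPMM (heifer 24) on Day 60 with a median of 1167. Heifer 29 was lowest on both days, and the ranges overlapped from 985.1 to 1412 RPMM, with 2 Day 60 libraries below the Day 0 range. The within-heifer log2 difference in RPMM was -0.26 ± 0.34 (SD, n = 11), with lower values in 9 of 11 heifers.

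miR-1839 and miR-1307 were the least abundant and have less settled functions. miR-1839 ran from 359.3 RPMM (heifer 24) through a median of 405.5 to 476.6 RPMM (heifer 17) on Day 0, and from 347.6 RPMM (heifer 26) through a median of 387.8 to 578.2 RPMM (heifer 11) on Day 60. Above the Day 0 range lay 3 Day 60 libraries and below it 2, and the direction was split between heifers, 5 higher and 6 lower. Its mean within-heifer log2 difference in RPMM was 0.02 ± 0.29 (SD, n = 11), the smallest of the 6.

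miR-1307 ran from 222.8 RPMM (heifer 11) through a median of 287.2 to 352.7 RPMM (heifer 31) on Day 0, and from 149.8 RPMM (heifer 14) through a median of 244.1 to 361.7 RPMM (heifer 17) on Day 60. Its Day 60 values reached beyond the Day 0 range on both sides, with 4 libraries below and 1 above. The within-heifer log2 difference in RPMM was -0.24 ± 0.47 (SD, n = 11), the widest SD of the 6. The highest Day 60 value is that of the shallow library, whose counting interval includes the highest Day 0 value.

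**Figure D1:**
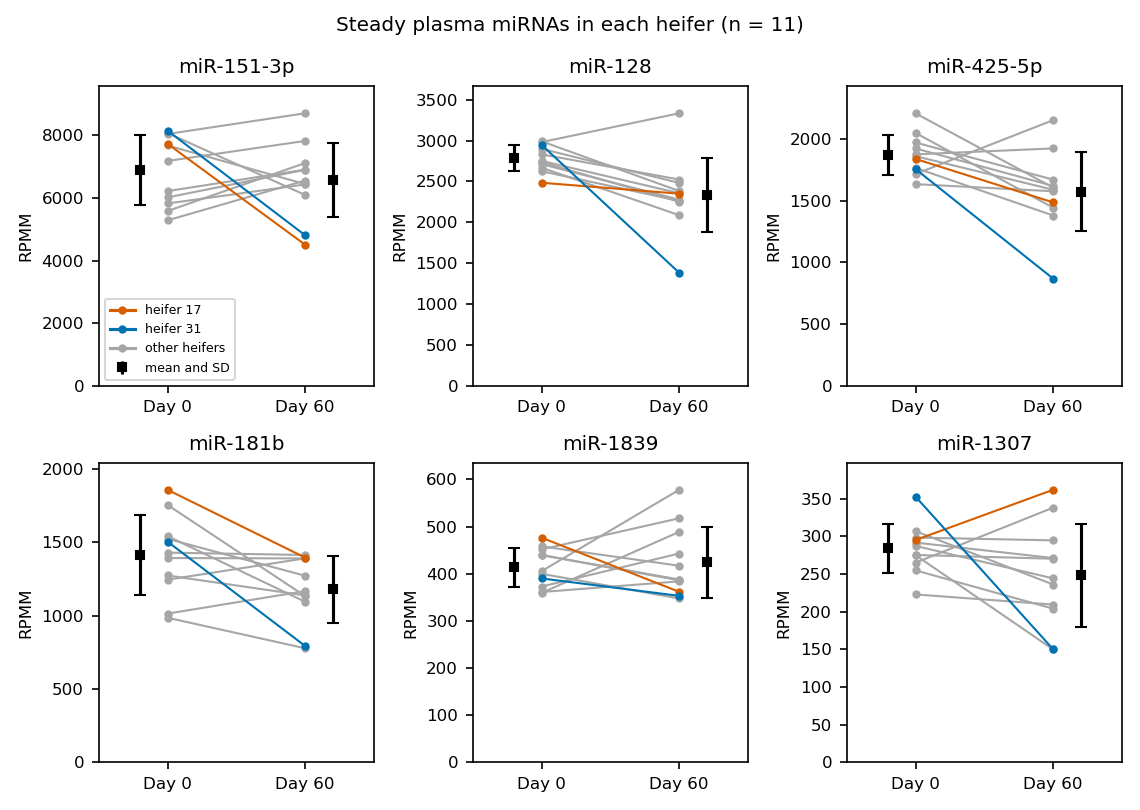
Level of each miRNA (RPMM, linear axis from 0) in 11 heifers on Day 0 and Day 60, with lines joining the libraries of one animal and black squares with bars for the mean and SD of each day. miR-128 and miR-425-5p sit in narrow bands on Day 0 and mostly lower on Day 60, where heifer 31 (blue) is lowest; heifer 17 (orange) has the fewest reads on Day 60.

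The coefficient of variation (CV, the SD as a percentage of the mean) over the 22 libraries describes the low spread for which these miRNAs were chosen. It was 14.1% for miR-1839 (jackknife SE over heifers 2.22), 15.7% for miR-128 (SE 4.0), 16.9% for miR-151-3p (SE 2.32) and 16.9% for miR-425-5p (SE 3.91). These were the 4 lowest of the 195 tested miRNAs, whose CVs ran from 14.1 to 189.0% with a median of 40.04%. miR-1307 at 20.9% (SE 3.93) and miR-181b at 21.05% (SE 3.62) ranked 7 and 8, so both fell within 1 SE of their nearest neighbours outside the set. Of those neighbours, miR-6524 had 19.2% and miR-186 19.6% (ranks 5 and 6), and miR-148a had 21.4% and miR-2285q 21.5% (ranks 9 and 10).

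Counting error was a small part of this spread. The CV expected from Poisson counting alone was 0.801% for miR-151-3p, 1.22% for miR-128, 1.5% for miR-425-5p, 1.65% for miR-181b, 3.05% for miR-1839 and 3.53% for miR-1307. The observed spread between libraries was therefore several times larger than counting error for each of them. When every library was thinned to 304117 reads, the CV of miR-1307 was 24.7% (rank 12) and that of miR-128 15.1% (rank 1).

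The 2 days did not share the spread equally. The CV was larger on Day 60 than on Day 0 for 6 of 6, by little for miR-181b (19.3 and 19.4%) and in proportion most for miR-128 (5.81 and 19.3%), and 149 of the 195 tested miRNAs likewise had the larger CV on Day 60. miR-1307 went from 11.5 to 27.6%, miR-425-5p from 8.67 to 20.4%, miR-1839 from 9.93 to 17.7% and miR-151-3p from 16.1 to 18.2%. On Day 0 miR-128, miR-425-5p, miR-1839 and miR-1307 held ranks 1 to 4 among all tested miRNAs, whereas miR-151-3p was at rank 11 and miR-181b at rank 28. On Day 60 miR-1839 was at rank 3, miR-151-3p at rank 4 and miR-1307 at rank 39. A single heifer carried part of the spread over both days. Without the 2 libraries of heifer 31 the CV over both days was 12.0% for miR-128 and 13.1% for miR-425-5p.

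**Figure D2:**
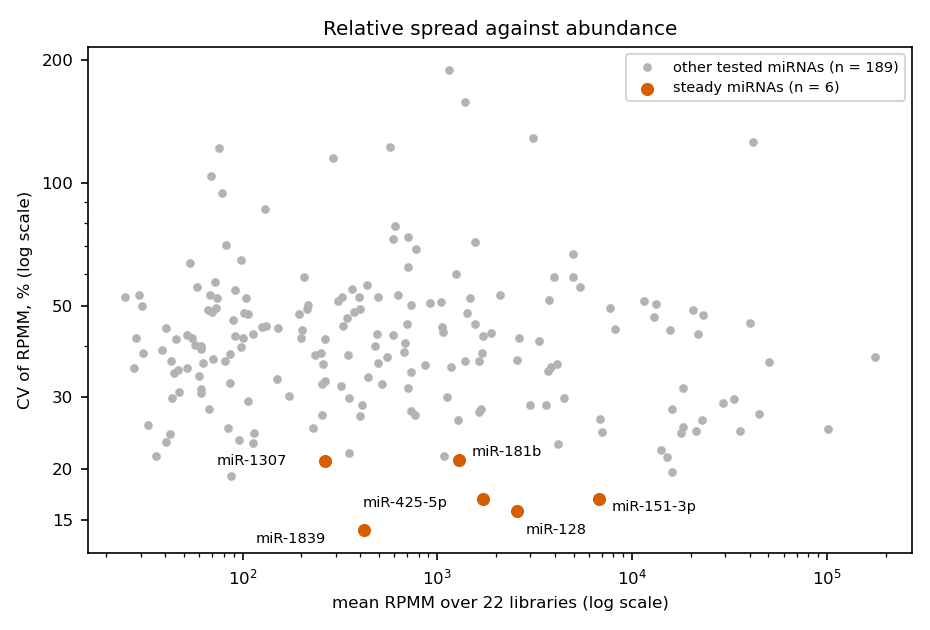
CV of RPMM over 22 libraries against mean RPMM for 195 tested miRNAs (both axes logarithmic), with the 6 selected miRNAs in orange. They lie at the lower edge of the cloud, between 14.1 and 21.05%, over a range of abundance from 266.1 RPMM (miR-1307) to 6732 RPMM (miR-151-3p).

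The order of steadiness depended on the scale. After TMM normalisation (trimmed mean of M values, which centres the bulk of miRNAs rather than the total), the CV of miR-181b was 14.6%, the lowest of the 195, and those of the other 5 ran from 15.1 to 19.3%. The median over the 6 was 15.5% against 38.2% over all tested miRNAs. With DESeq2 size factors miR-181b had 12.6% and miR-1839 18.5%, and with upper quartile factors miR-151-3p was lowest of all at 12.9%. By TMM miR-148a, outside the set, had the next lowest value at 14.9%.

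The scale also set the apparent difference between days. With edgeR on TMM-scaled counts and heifer as block, the log2 fold-changes on Day 60 were -0.09 (SE 0.14) for miR-128, -0.09 (SE 0.15) for miR-425-5p, -0.07 (SE 0.14) for miR-181b and -0.05 (SE 0.16) for miR-1307. They were 0.12 (SE 0.14) for miR-151-3p and 0.21 (SE 0.14) for miR-1839, which was higher on Day 60 in 10 of 11 heifers on this scale. Heifer 31 moved the lower ones: without it the log2 fold-changes were -0.03 for miR-128, -0.04 for miR-425-5p, -0.03 for miR-181b and 0.03 for miR-1307. For miR-1307 the sign thus rested on that animal. None of the 6 was called, where 35.4% of all tested miRNAs were called at a false discovery rate (FDR) under 0.05; since low spread chose the 6, nothing is read from this count.

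On library totals the same 6 fold-changes were -0.28 for miR-128, -0.28 for miR-425-5p, -0.26 for miR-181b, -0.24 for miR-1307, -0.07 for miR-151-3p and 0.02 for miR-1839. The median over all tested miRNAs moved likewise, from -0.06 by TMM to -0.25 by totals, so that relative to that median miR-128 lay at almost the same place on both scales. For miR-128 the number of heifers with a higher value on Day 60 was 1 by RPMM, 6 by TMM, 5 by DESeq2 size factors and 2 by upper quartile. On every scale tried, single members included, miR-1839 was higher on average and miR-128 lower. For miR-128 the log2 fold-change was only -0.00054 (SE 0.13) with miR-425-5p as scale and -0.03 (SE 0.14) with DESeq2 size factors. For miR-151-3p the sign differed between scales, and for miR-1307 it turned slightly positive with DESeq2 size factors (0.01) and with miR-128, miR-425-5p or miR-181b as scale (0.04, 0.04 and 0.02).

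**Figure D3:**
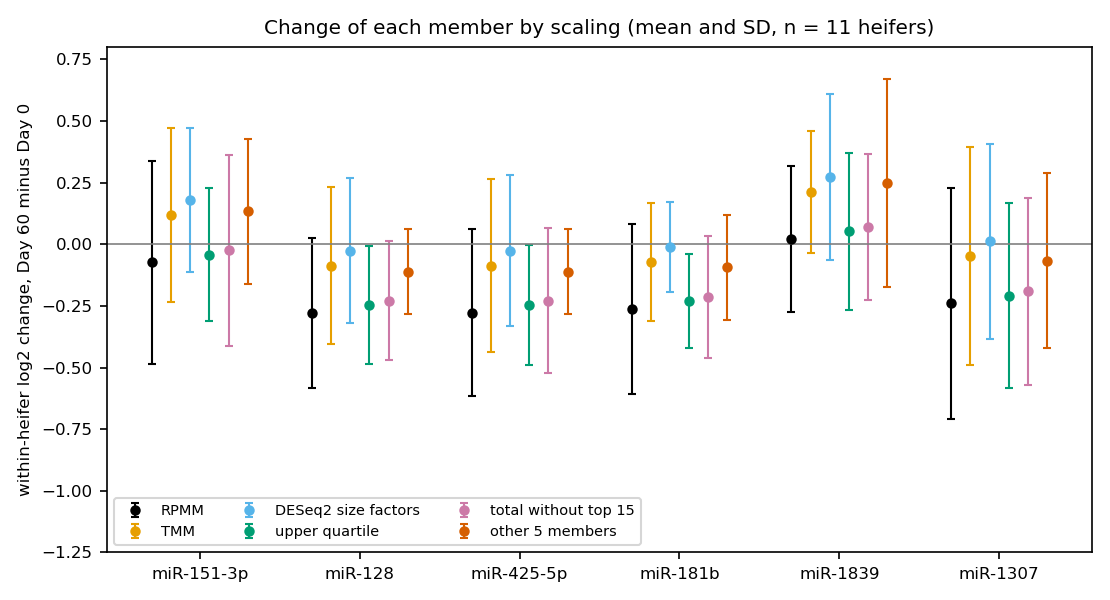
Mean within-heifer log2 change, Day 60 minus Day 0, of each miRNA under 6 scalings, with bars for the SD over 11 heifers. miR-1839 lies at or above 0 and miR-128 at or below 0 under each scaling shown, and RPMM and upper quartile give lower values than TMM for each miRNA.

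Summed, the 6 miRNAs made up 1.17 to 1.52% of miRNA reads on Day 0 (median 1.39%) and 0.836 to 1.49% on Day 60 (median 1.26%). The share was higher on Day 60 in 2 of 11 heifers. Their geometric mean was 1339 ± 86.6 RPMM on Day 0 and 1187 ± 160 RPMM on Day 60 (SD, n = 11), and the lowest value, 790.0 RPMM, was that of heifer 31 on Day 60. In that library the share of miR-143 and the haemolysis indicator were at their highest. The part of either in these values was not tested.

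Ratios between 2 miRNAs of one library do not depend on any scaling. Of the 15 pairs among the 6, miR-128 with miR-425-5p had the steadiest ratio, with an SD of the log2 ratio of 0.12 over 22 libraries and a CV of 8.37%. The ratio of their reads was 1.30 (heifer 14) to 1.74 (heifer 12) on Day 0 with a median of 1.51, and 1.31 to 1.63 on Day 60 with a median of 1.49. Every Day 60 value fell inside the Day 0 range. The geometric mean was 1.49 on both days, the ratio was higher on Day 60 in 6 heifers and lower in 5, and the mean within-heifer log2 difference was -0.00047 ± 0.14 (SD, n = 11).

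Among all 18336 pairs of the 192 tested miRNAs with reads in every library, no pair had a smaller SD than miR-128 with miR-425-5p. Within days 24 pairs had a smaller SD on Day 0 and 1 pair on Day 60, and 1 pair had a smaller SD when the shallow library was left out. The median over the 15 pairs was 0.31 against 0.78 over all pairs, as a description of miRNAs that were picked for low spread. miR-128 and miR-425-5p lie on different chromosomes in the deposited coordinates, and MIR128-2 shares chromosome 22 with MIR425 in RefSeq.

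The next steadiest ratios also joined this pair to 1 other miRNA. miR-128 to miR-1307 had an SD of 0.23 and miR-425-5p to miR-1307 of 0.24, and without the shallow library both came to 0.19. miR-1839 to miR-151-3p had an SD of 0.28. The least steady was miR-1839 to miR-1307, with an SD of 0.43 and read ratios between 2.96 in heifer 14 and equal reads in heifer 17, both on Day 60. On Day 0 that ratio had run only from 1.11 to 1.82.

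**Figure D4:**
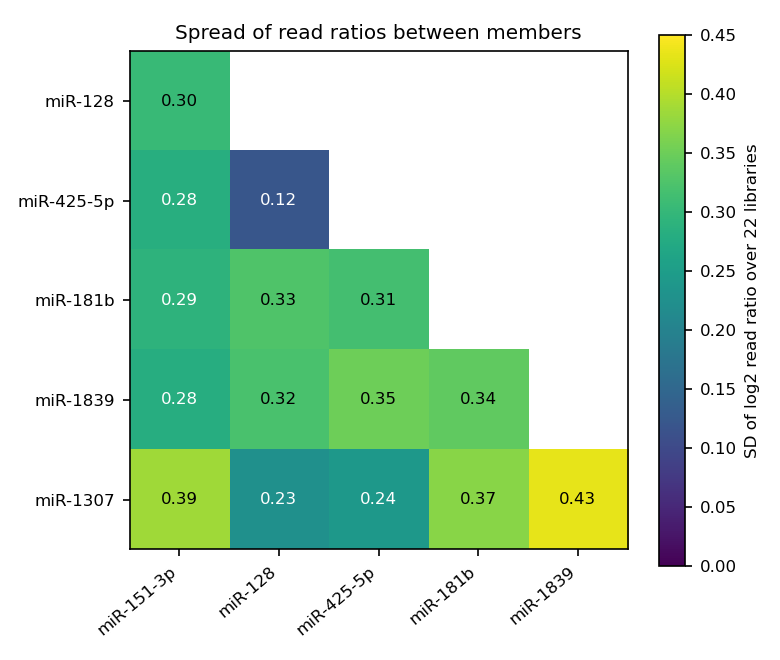
SD of the log2 read ratio over 22 libraries for each of the 15 pairs, with miRNAs in order of abundance and a colour scale from 0 to 0.45. The value of 0.12 for miR-128 with miR-425-5p is the lowest and 0.43 for miR-1839 with miR-1307 the highest.

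Of the 15 ratios, the largest mean differences between days were those of miR-128, miR-425-5p, miR-181b and miR-1307 with miR-1839, whereas miR-1839 to miR-151-3p differed by only 0.10 on the log2 scale. miR-128 to miR-1839 ran from 5.21 to 8.33 (median 6.78) on Day 0 and from 3.92 (heifer 31) to 8.60 (heifer 12) on Day 60 (median 5.43). On Day 60, 5 libraries were below the Day 0 range and 1 above, and the ratio was lower on Day 60 in 9 of 11 heifers, with a mean within-heifer log2 difference of -0.30 ± 0.44 (SD). miR-425-5p to miR-1839 had geometric means of 4.53 and 3.68, also lower in 9 of 11 heifers, with 6 Day 60 libraries below the Day 0 range. miR-181b to miR-1839 went from 3.36 to 2.76 and was lower in 8 of 11. For 0 of the 15 pairs did the mean difference between days exceed its SD over heifers. That SD describes the scatter of single animals and is not the error of the mean. The comparison therefore does not show that the ratios were unchanged.

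Of the 15 ratios, 11 spread more on Day 60 than on Day 0. For miR-151-3p to miR-1307 the SD of the log2 ratio was 0.22 on Day 0 and 0.50 on Day 60, for miR-1839 to miR-1307 0.25 and 0.54, and for miR-181b to miR-151-3p 0.16 and 0.36. miR-128 to miR-425-5p was an exception, at 0.14 on Day 0 and 0.10 on Day 60. Single Day 60 libraries held the extremes: relative to the other 5, heifer 17 had the highest miR-1307 and the lowest miR-151-3p, and heifer 29 the lowest miR-181b. With the shallow library left out, the largest SD of the 15 was 0.42 and the median stayed at 0.31.

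In mean reads miR-151-3p was followed by miR-128, miR-425-5p, miR-181b, miR-1839 and miR-1307, and this order, read from the same libraries, is given as a description. Compared within libraries on each day, 8 of the 10 neighbouring steps had the same direction in 11 of 11 heifers. The smallest geometric mean ratios were those of miR-425-5p over miR-181b (1.35 on Day 0 and 1.33 on Day 60), whereas miR-181b over miR-1839 came to 3.36 and 2.76 and miR-151-3p over miR-128 to 2.45 and 2.82. miR-425-5p exceeded miR-181b on Day 0 in 10 of 11 heifers, and miR-1839 exceeded miR-1307 on Day 60 in 10 of 11. The exception in both steps was heifer 17, in which miR-181b and miR-425-5p were within 1.01-fold on Day 0 and miR-1839 and miR-1307 had equal reads on Day 60. This is an order of reads, and how adapter ligation affects reads of different miRNAs was not tested.

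The 6 were set beside 6 relatives, namely other products of their precursors or families and miR-191, the genomic neighbour of miR-425. Wider spread in a relative is a description only, since low spread chose the 6. Of the 6 relatives 5 were tested, and 0 were called by edgeR with TMM, where 35.4% of all tested miRNAs were called. On the other scales used here 0 were called either, where 26.8 to 40.5% of all tested miRNAs were. miR-151-5p, the other arm of the miR-151 hairpin, had a log2 fold-change of -0.21 (SE 0.18) and a CV of 28.0%. On Day 0 there were 3.09 to 5.15 reads of miR-151-3p for each read of miR-151-5p, against 3.06 to 6.81 on Day 60, and the SD of the log2 ratio was 0.35. The SD of the ratio between these arms of one hairpin was thus above the median of the 15 pairs (0.31) and below their highest value (0.43).

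miR-425-3p had a CV of 86.3%, at rank 186 of the 195, but the shallow library of heifer 17 carried most of it, with 621.5 RPMM against at most 156.5 RPMM elsewhere. Without that library its CV was 26.0% (rank 35), and over all libraries that of miR-425-5p was 16.9%. The 5p arm exceeded the 3p arm 12.3 to 22.7 times on Day 0 but 2.39 to 21.2 times on Day 60, and the lowest value was that of heifer 17. The SD of the log2 ratio was 0.66 with the shallow library and 0.30 without it. miR-181a, which is encoded beside miR-181b, was steadier, with a CV of 22.2% (rank 13) and a log2 fold-change of 0.04 (SE 0.12). The ratio of miR-181b to miR-181a had an SD of 0.20 on the log2 scale. miR-191, the neighbour of miR-425, had a log2 fold-change of 0.22 (SE 0.21) and a CV of 29.7%.

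The miRNAs whose TMM-scaled levels followed each member most closely differed from member to member. Over the 22 libraries, which share depth and normalisation, Pearson's r of log2 levels was 0.85 between miR-128 and miR-425-5p, and miR-1343-3p was next for both (0.74 with miR-128 and 0.78 with miR-425-5p). miR-181b was closest to miR-181a (0.73) and miR-140 (0.53), miR-1839 to the leukocyte marker miR-142-5p (0.73) and to miR-19a (0.66), miR-151-3p to miR-2285q (0.82) and miR-191 (0.80), and miR-1307 to miR-1842 (0.69) and miR-760-3p (0.68). The median r of a member with the other 5 was between -0.13 (miR-1839) and 0.29 (miR-425-5p). A member and the rest of the 6 were thus mostly weakly correlated.

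When the 6 were used as the scale, other miRNAs were tested against their geometric mean. With edgeR, 66 of 189 miRNAs (34.9%) were called, 31 higher and 35 lower on Day 60, against 69 of 195 by TMM (34 higher and 35 lower). Of the 66, 64 were also called by TMM, with the same sign. Since the 6 were chosen for low spread in these same libraries, this overlap is no independent check. The FDRs on this scale likewise depend on that choice. The highest fold-changes among the calls were let-7c (log2 2.04, SE 0.34, FDR = 0.00368, higher in 10 of the 11 animals), miR-143 (1.62, SE 0.41, FDR = 0.0115, higher in 9) and miR-155 (1.19, SE 0.25, FDR = 0.00675, higher in 10), a miRNA known from activated lymphocytes. The lowest were miR-4532 (-1.61, SE 0.34, FDR = 0.00675, lower in 9), miR-205 (-1.48, SE 0.31, FDR = 0.00675, lower in 10) and miR-328 (-1.31, SE 0.29, FDR = 0.00999, lower in 9). Without heifer 10, 11, 28 or 29 the calls on this scale numbered 28, 26, 30 and 38, and without heifer 32 there were 99. Without heifer 17 there were 48 calls, and without heifer 31 there were 79.

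Which single miRNA served as the scale decided the balance of calls. With miR-128 as scale, 56 of 194 were called (28.9%), 36 higher and 20 lower, and with miR-425-5p 54 (27.8%), 35 higher and 19 lower. miR-181b gave 61 calls (31.4%), 34 higher and 27 lower, and miR-1307 gave 52 (26.8%), 31 higher and 21 lower. With miR-1839 the balance turned over, with 64 calls (33.0%), 12 higher and 52 lower, and miR-151-3p likewise gave 64 (33.0%), 20 higher and 44 lower. The median log2 fold-change over all tested miRNAs was 0.02 with miR-128 as scale and -0.28 with miR-1839, and each gene's change is to be read against that shift.

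Each heifer was left out in turn to see whether the balance kept its direction. With miR-1839 lower calls outnumbered higher ones whichever of the 11 heifers was omitted. With miR-425-5p higher calls were the majority in 11 of 11 cases. That majority was narrow without heifer 31 (34 higher and 33 lower) and without heifer 32 (41 higher and 36 lower). With miR-128 higher calls were the majority in 10 of 11 cases, and without heifer 31 there were 35 higher and 40 lower. With miR-1307, the least abundant, higher calls were the majority in only 7 of 11 cases, and the number of calls fell to 9 without heifer 28 and reached 69 without heifer 31. Conventional scales showed a like range: library totals gave 68 calls (34.9%), 11 higher and 57 lower, upper quartile 79 (40.5%), 21 higher and 58 lower, and DESeq2 size factors 70 (35.9%), 36 higher and 34 lower.

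**Figure D5:**
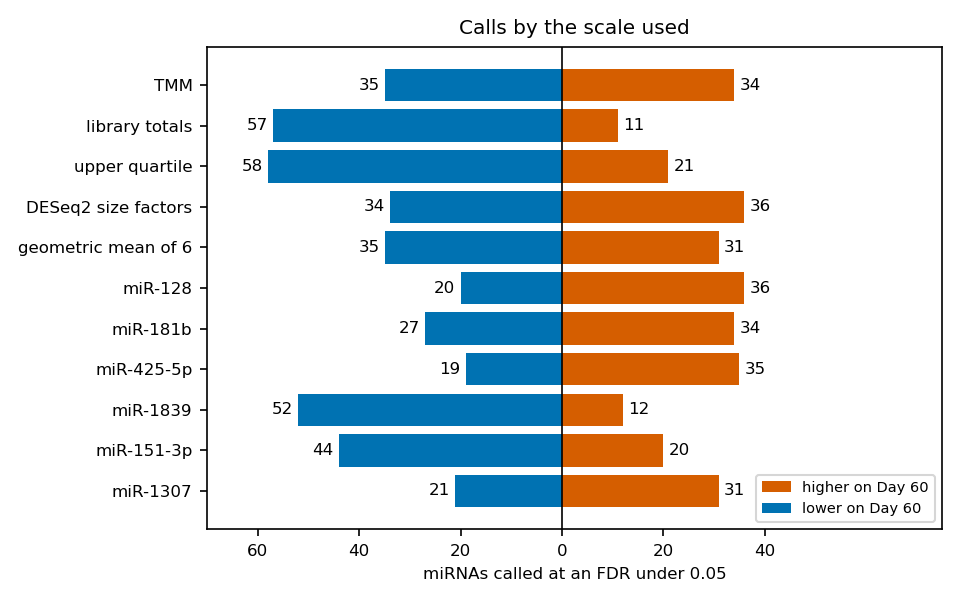
Number of miRNAs called higher (right, orange) or lower (left, blue) on Day 60 by edgeR at an FDR under 0.05, for each scale. TMM, DESeq2 size factors and the geometric mean of the 6 give near-equal numbers, whereas miR-1839 (12 higher, 52 lower) and miR-128 (36 higher, 20 lower) give opposite majorities.

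A list of 14 miRNAs that are commonly used as references in plasma was set against this scale. By TMM 5 of the 14 were called higher on Day 60 and 2 lower, beside 35.4% of all tested miRNAs called in either direction. The median log2 fold-change of the list was 0.27, against -0.06 over all tested miRNAs. With the geometric mean of the 6 as scale 4 were higher and 2 lower (34.9% called over all tested), with a median of 0.27 against -0.08. miR-103 was lower on both scales (log2 -0.78, edgeR FDR = 0.0220 by TMM, and -0.79, FDR = 0.0209 by the 6), as was miR-423-3p (-0.91, FDR = 0.0111, and -0.91, FDR = 0.0101). let-7a-5p was higher on both (0.75, FDR = 0.0124, and 0.74, FDR = 0.0183), and so was miR-93 of the oncogenic miR-17 family (0.70, FDR = 0.0220, and 0.70, FDR = 0.0292). By library totals none of the 14 was called higher and 4 were called lower (34.9% called over all tested miRNAs), and with miR-1839 as scale 1 was higher and 3 lower (33.0%).

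Single references varied in spread. Any comparison of their spread with that of the 6 is a description only, since low spread chose the 6. miR-16b, which is abundant in red cells, had a CV of 50.7% and was called higher by TMM (log2 0.68, FDR = 0.0487) but not with the 6 as scale (0.68, FDR = 0.0603). miR-186, itself at rank 6 of CV with 19.6%, was called higher on both (0.51, FDR = 0.0123, and 0.51, FDR = 0.0162), as was miR-30e-5p (0.54, FDR = 0.0170, and 0.54, FDR = 0.0209). By library totals, the scale on which its CV lay within the range of the 6, miR-186 was not called (FDR = 0.0903), and by TMM its CV was 22.4%. miR-24-3p had the highest CV of all tested miRNAs at 189.0%, which rested on the shallow library, with 10789 RPMM there and at most 1128 RPMM elsewhere. Without that library the CV was 34.3% for miR-24-3p and 36.2% for miR-16b.

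The ratio of each of the 6 to the geometric mean of the other 5 was compared with total reads and with the haemolysis indicator, on Day 0, on Day 60 and as within-heifer differences. None of the 36 relations passed the adjusted threshold by Pearson's r or by Spearman's rho, and 1 of each had an unadjusted permutation p under 0.05. The lowest adjusted permutation p was that of miR-181b against the haemolysis indicator within heifers (Spearman's rho -0.82, permutation p = 0.00335, adjusted p = 0.121; Pearson's r -0.56, permutation p = 0.0807, adjusted p = 0.811; n = 11). Pearson's r without heifers 17 and 32, the 2 farthest from the median of the indicator, was -0.48. For miR-1307 against total reads within heifers r was -0.62 (permutation p = 0.0444, adjusted p = 0.811; rho -0.35, permutation p = 0.299, adjusted p = 0.980), and 0.12 without heifers 14 and 17, so that it rested on those animals. Leaving out heifers 17 and 32 also moved r with the haemolysis indicator within heifers the other way, from 0.37 to 0.69 for miR-1839 (unadjusted permutation p = 0.0337) and from -0.04 to -0.61 for miR-1307 (unadjusted permutation p = 0.0736), and none of the 36 relations passed the adjusted threshold without the 2 farthest animals. With 11 animals these comparisons could miss a moderate relation. The 6 were also chosen for low spread, which leaves less variation that could follow a library measure. The lack of relations that passed is therefore not read as independence from either measure.

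The ratio of each member to the other 5 was also compared between the days of one animal. Between the Day 0 and the Day 60 library of the same heifer the correlation of this ratio, as a description over 11 animals, was highest for miR-181b (0.69), followed by 0.50 for miR-425-5p, 0.45 for miR-128, 0.35 for miR-1307, 0.23 for miR-151-3p and -0.22 for miR-1839. miR-181b had the highest value, with heifer 29 lowest in RPMM on both days, and miR-1839, the miRNA with the lowest CV, the only negative one. These correlations were not tested.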

How the data were processed

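Plasma RNA was made into TruSeq small RNA libraries, and the authors assigned reads to mature miRNAs with sRNAbench (bosTau4, miRBase; Bowtie 0.12.9 per the submitters' processing notes). Read counts as deposited were used. The deposited RPMM values, a signal per 1000000 miRNA reads, differed from RPMM computed here by at most 0.333% for the 6 miRNAs. Members and lists were chosen with earlier results of these data known. The filter kept miRNAs that exceeded 25 RPMM in over 8 libraries on at least 1 day, and these were tested with edgeR 4.0.16 (quasi-likelihood, TMM, heifer as block, Benjamini-Hochberg; R 4.3.3), after a test on simulated data. A scaling miRNA was left out of its own test. Other scales, no filter, no block, DESeq2 1.42.0, thinning and leaving out each heifer were tried. Relations used 100000 permutations. Libraries were paired by animal from the sample titles. Likeness within animals was weak: deviations from the day means correlated at 0.141 within heifers and -0.00619 between heifers, and 3 of 11 correlated best with their own. p-values rest on one library per animal and day. Named miRNAs were the 6, their relatives, 14 customary references, 4 neighbours in CV, the 2 most correlated miRNAs each and the 3 highest and lowest calls. Mature sequences were not used here.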

Additional observations from a re-analysis of the deposited data

How the results depend on the processing

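The number of miRNAs called by TMM (69, or 92 at an unadjusted p under 0.05) was 85 with DESeq2 as the tool, 54 without the filter and 83 without the heifer block that pairs libraries; with the geometric mean of the 6 as scale (66) it was 46 without the filter and 84 without the block. With 1 heifer at a time left out there were 35 to 97 calls by TMM and 26 to 99 with the 6 as scale. The lowest TMM counts were 35 without heifer 28, 43 without heifer 11, 44 without heifer 10 and 47 without heifer 29, and the cause was not tested. Leaving one member out of the geometric mean gave 55 calls without miR-1839 (31 higher and 24 lower) and 65 to 68 without any other. With a single member as scale, leaving out a heifer gave 36 to 77 calls for miR-128, 30 to 89 for miR-181b, 21 to 77 for miR-425-5p, 46 to 96 for miR-1839, 18 to 96 for miR-151-3p and 9 to 69 for miR-1307; this was chosen after seeing the data, as were the values without the shallow library and the other settings for the references. Of the 14 references 7 were called by TMM, and 4 by library totals or without heifer 28. Of 114 alternative values of the CV 12 moved by more than their jackknife SE, of 225 of the pair SD 18 did, and the order of levels kept its direction in all 110 repeats without 1 heifer. Thinned to the depth of the shallowest library, the SD of miR-128 to miR-1307 was 0.29.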
